A study of Sus scrofa with 14 samples.

Results

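The genes described here are the AP-1, MYC and immediate early genes of the pig, followed across 5 groups of RNA-seq libraries from pig epiblast stem cells and muscle cells. They were chosen by name: 10 names were looked up in the deposited table, of which 8 have a row (JUNB, FOS, FOSL1, FOSL2, ATF3, EGR1, MYC and MYCN) among 15031 genes. JUN and JUND have no row under these names and were not analysed here. All 8 genes passed the filter on low values, as did 14957 genes of the table.

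The 14 libraries fall into 5 groups, all labelled wild type. pgEpiSCs are pluripotent stem cells of the pre-gastrulation pig epiblast, kept on mouse feeder cells in a medium with CHIR99021, IWR-1-endo, WH-4-023, LIF, activin A and FGF2. They were sequenced at passage 200 (pgEpiSCs-High, n = 3) and passage 30 (pgEpiSCs-Low, n = 3). pgEpiSCs-MPCs (n = 2) were collected at day 8 of serum-free myogenic differentiation, which began with CHIR99021 and SB431542 and went on with HGF, IGF-1, FGF2 and LDN193189. pgEpiSCs-MCs (n = 3) were collected at day 44 of the same protocol, after further culture with IGF-1 and HGF and a final medium with N2. MPC-Dif (n = 3) are muscle stem cells isolated from the back muscle of young piglets and kept for 4 days in a differentiation medium with horse serum. Medium, days in culture and origin of the cells therefore change together between MPC-Dif and the other groups and cannot be told apart. Between pgEpiSCs, pgEpiSCs-MPCs and pgEpiSCs-MCs, medium and days in culture change together with the stage and cannot be told apart from it. Whether libraries of 1 group stem from different cultures or animals is not stated in the sources used here, so p-values measure only their spread.

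Values are TPM, transcripts scaled by length to a fixed total per library, so levels may be compared between genes but the number of reads behind a value is unknown. Between 12150 and 13781 genes lay above 0.5 TPM in a library. The labels were checked against marker genes. NANOG, a pluripotency factor, had 227 to 254 TPM in pgEpiSCs-High and 214 to 226 TPM in pgEpiSCs-Low. It had at most 0.64 TPM in any other library. Of the other pluripotency markers, LIN28A and ZFP42 were also higher in every pgEpiSCs library than in all others, and SOX2 and OTX2 were not. DPPA4 was at most 2.68 TPM in any library. MYOG, a factor of muscle differentiation, had 1.63 to 2.71 TPM in pgEpiSCs-MPCs, 47.3 to 66.6 TPM in pgEpiSCs-MCs and 200 to 222 TPM in MPC-Dif. Of the other skeletal muscle markers, MYMK, MYH3 and CKM rose in the same order, and DES, MYOD1, ACTA1 and TNNT1 did not. ACTA1 had 2.86 to 3.25 TPM in pgEpiSCs-MPCs, 1.31 to 1.65 TPM in pgEpiSCs-MCs and 123 to 130 TPM in MPC-Dif. TNNT1 fell over these groups, from 221 to 236 TPM through 34.9 to 38.6 TPM to 12.8 to 14.2 TPM. Of the muscle progenitor markers, PAX7 had 20.6 to 25.5 TPM and PAX3 118 to 121 TPM in pgEpiSCs-MPCs. MYF5 (0.133 to 0.303 TPM) and MEOX1 (0.297 to 1.22 TPM) were low in that group. Fibroblast markers also differed, and their values stand beside the results below.

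AP-1 is a dimer of a JUN protein with a FOS or ATF protein and binds the short DNA element TGACTCA. Many of its genes are immediate early genes, whose transcription starts within minutes of a growth factor, serum or stress signal without new protein synthesis, through MAP kinases and the factors SRF and TCF at the serum response element. EGR1, a zinc finger factor, is switched on by the same route. MYC and MYCN are related factors that bind CACGTG together with MAX and drive ribosome production and growth. MYCN is best known from embryonic and neural progenitor cells, and MYC from most dividing cells. In muscle, AP-1 and MYC are known from activated muscle stem cells and myoblasts, and their decline accompanies terminal differentiation.

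The serum response element of the immediate early genes carries a CArG box, the binding site of SRF, so the sequence upstream of the 8 genes was searched. The 1000 bases before each gene start of the RefSeq annotation of Sscrofa11.1 were read, a length chosen after windows of 300 bases were seen to hold no CArG box in any of the 8 genes. A CArG box lay in 2 of 8 genes, against 5.78% of 19528 promoters of the same length. The AP-1 element TGACTCA was present in 2 of 8 genes (12.6% of promoters), its longer form TGACGTCA in 0 of 8 (2.40%), the MYC element CACGTG in 1 of 8 (16.6%) and the EGR element CGCCCCCGC in 1 of 8 (8.15%). Both strands were searched, and no motif overlaps another in these windows. The windows of MYC and MYCN held none of the 5 motifs. Each match is printed on the strand of its gene, with 20 bases either side or up to the gene start. Matched letters are in capitals. Elements of these kinds are known to regulate such genes, but whether these matches do so was not tested.
FOS, CArG box, chr7:98449032-98449081, plus strand: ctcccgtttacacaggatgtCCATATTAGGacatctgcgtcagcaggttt
FOSL1, CArG box, chr2:6429483-6429532, plus strand: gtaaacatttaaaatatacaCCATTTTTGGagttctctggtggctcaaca
JUNB, TGACTCA on the other strand, chr2:66220299-66220345, minus strand: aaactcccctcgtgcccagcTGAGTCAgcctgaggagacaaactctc
JUNB, TGACTCA, chr2:66220038-66220084, minus strand: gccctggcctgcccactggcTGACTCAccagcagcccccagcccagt
FOSL2, TGACTCA, chr3:110843632-110843678, minus strand: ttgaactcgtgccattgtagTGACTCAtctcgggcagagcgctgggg
ATF3, CACGTG, chr9:130829847-130829892, minus strand: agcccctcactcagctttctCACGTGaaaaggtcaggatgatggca
EGR1, EGR element, chr2:140440781-140440828, plus strand: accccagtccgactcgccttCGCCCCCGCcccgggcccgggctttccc
The box of FOS begins 456 bases before the annotated start and has the letters of the serum response element of the human FOS gene. The box of FOSL1 begins 655 bases before the start. The JUNB elements begin 890 and 629 bases before it, that of FOSL2 755, that of ATF3 194 and that of EGR1 28 bases. These are matches of letters and not measured binding sites. Gene starts were taken as annotated, so a window without a match does not show that the gene lacks the element.

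The AP-1 genes and EGR1 shared one outline over the groups. They were low in both passages of pgEpiSCs and in pgEpiSCs-MPCs and higher in pgEpiSCs-MCs and MPC-Dif. MYC and MYCN were highest in pgEpiSCs. In bulk libraries fewer cells of a type and less RNA per cell cannot be told apart.

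**Figure D1:**
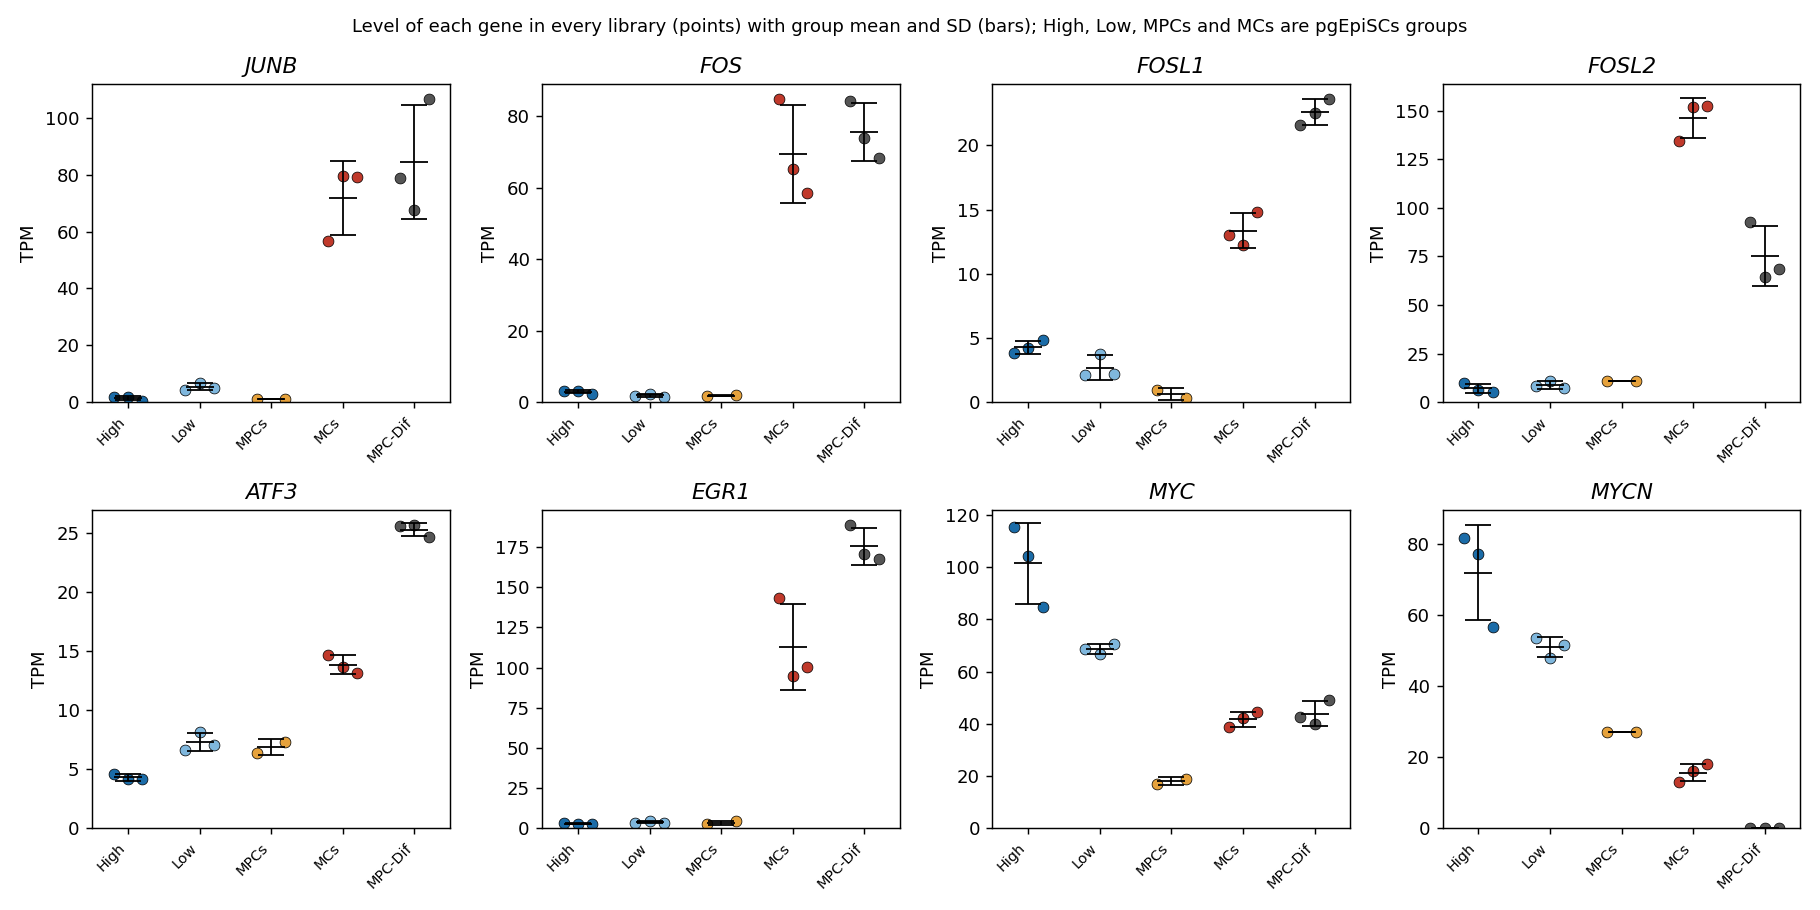
TPM (linear axis from 0, its own range in each panel) of the 8 genes in every library, with the group mean and SD. The points of pgEpiSCs-MCs and MPC-Dif lie above all other libraries for JUNB, FOS, FOSL1, FOSL2, ATF3 and EGR1, while MYC and MYCN have their highest points in pgEpiSCs-High and MYCN lies at or below 0.083 TPM in MPC-Dif.

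JUNB (chromosome 2, 66214086 to 66219435, minus strand, 1 exon) encodes a JUN protein that can also restrain the other JUN proteins. It had 1.79, 1.61 and 0.494 TPM in pgEpiSCs-High, 4.36, 6.75 and 4.95 TPM in pgEpiSCs-Low, 1.20 and 1.23 TPM in pgEpiSCs-MPCs, 56.7, 79.6 and 79.2 TPM in pgEpiSCs-MCs, and 79.0, 67.8 and 107 TPM in MPC-Dif. Every pgEpiSCs-MCs and MPC-Dif library was above every other library, while these groups overlapped each other. JUNB averaged 71.8 ± 13.1 TPM in pgEpiSCs-MCs (SD, n = 3) and 3.33 ± 2.40 TPM in pgEpiSCs (SD, n = 6), a 21.6-fold higher mean. The log2 fold change of 4.27 in this comparison was 5.02 against pgEpiSCs-High alone and 3.52 against pgEpiSCs-Low alone. High passage cells had less JUNB than low passage cells (1.30 ± 0.703 TPM against 5.35 ± 1.25 TPM, SD, n = 3 each), and the fitted log2 fold change was -1.50 (SE 0.23, limma adjusted p = 0.000437).

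FOS (chromosome 7, 98449508 to 98451971, plus strand, 4 exons) is the classic immediate early gene and the partner of the JUN proteins. It had 3.14, 2.98 and 2.36 TPM in pgEpiSCs-High, 1.67, 2.35 and 1.52 TPM in pgEpiSCs-Low, 1.74 and 1.86 TPM in pgEpiSCs-MPCs, 85.0, 65.2 and 58.6 TPM in pgEpiSCs-MCs, and 84.4, 73.9 and 68.4 TPM in MPC-Dif. The last pair of groups overlapped and stood apart from all others. The mean in pgEpiSCs-MCs was 29.8 times that in pgEpiSCs (log2 fold change 4.41, SE 0.13, adjusted p = 3.71e-13), and the mean in MPC-Dif was 32.3 times that in pgEpiSCs (4.54, SE 0.13, adjusted p = 1.51e-13). Both comparisons share the 6 pgEpiSCs libraries.

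FOSL2 (chromosome 3, 110820403 to 110842903, minus strand) and FOSL1 (chromosome 2, 6430158 to 6436173, plus strand) encode the FOS-related proteins FRA2 and FRA1, which lack the strong activation domain of FOS and last longer in cells. FOSL2 had 9.83, 6.13 and 5.43 TPM in pgEpiSCs-High, 8.47, 11.08 and 7.09 TPM in pgEpiSCs-Low, 10.8 and 10.8 TPM in pgEpiSCs-MPCs, 135, 152 and 152 TPM in pgEpiSCs-MCs, and 93.0, 64.2 and 68.6 TPM in MPC-Dif. It was the only one of the 6 AP-1 and EGR1 genes whose pgEpiSCs-MCs libraries all lay above the MPC-Dif libraries, with a log2 fold change of 0.97 (SE 0.19, adjusted p = 0.000317), or 0.61 with median-of-ratios scaling (adjusted p = 0.0079). FOSL1 had 3.80, 4.20 and 4.80 TPM in pgEpiSCs-High, 2.12, 3.77 and 2.17 TPM in pgEpiSCs-Low, 0.969 and 0.319 TPM in pgEpiSCs-MPCs, 13.0, 12.2 and 14.8 TPM in pgEpiSCs-MCs, and 21.6, 22.6 and 23.6 TPM in MPC-Dif. No neighbouring groups overlapped in FOSL1, and pgEpiSCs-MPCs were lowest, with a log2 fold change of -1.43 against pgEpiSCs (SE 0.17, adjusted p = 5.11e-06), which was -2.35 with a pseudocount of 0.1 in place of 1.

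ATF3 (chromosome 9, 130772259 to 130829678, minus strand) encodes a stress-induced partner of JUN that often represses transcription. It had 4.64, 4.16 and 4.17 TPM in pgEpiSCs-High, 6.66, 8.20 and 7.08 TPM in pgEpiSCs-Low, 6.41 and 7.34 TPM in pgEpiSCs-MPCs, 14.7, 13.7 and 13.1 TPM in pgEpiSCs-MCs, and 25.6, 25.7 and 24.7 TPM in MPC-Dif. ATF3 had the smallest rise of the 6 genes, 2.38-fold in the mean of pgEpiSCs-MCs over pgEpiSCs and 4.35-fold in MPC-Dif over pgEpiSCs. pgEpiSCs-MPCs and pgEpiSCs-Low overlapped, and all other neighbours in its order were apart.

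EGR1 (chromosome 2, 140440829 to 140445302, plus strand, 2 exons) reached the highest level of the 8 genes. It had 3.24, 2.87 and 2.99 TPM in pgEpiSCs-High, 3.52, 4.64 and 3.52 TPM in pgEpiSCs-Low, 2.62 and 4.36 TPM in pgEpiSCs-MPCs, 143, 95.0 and 100.1 TPM in pgEpiSCs-MCs, and 189, 171 and 167 TPM in MPC-Dif. Its mean lay above 94.5% of the genes of the table in MPC-Dif and above 90.5% in pgEpiSCs-MCs, against 31.8% in pgEpiSCs. The mean was 50.7-fold higher in MPC-Dif than in pgEpiSCs (log2 fold change 5.31, SE 0.14, adjusted p = 7.72e-14) and 32.6-fold higher in pgEpiSCs-MCs than in pgEpiSCs (4.66, SE 0.14, adjusted p = 5.68e-13). Replicate 1 of pgEpiSCs-MCs was the highest library of its group for EGR1, FOS and ATF3 and the lowest for JUNB, FOSL2, MYC and MYCN.

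The make-up of AP-1 differed between the groups that held much of it. JUNB, FOS, FOSL1, FOSL2 and ATF3 together made 315 TPM in pgEpiSCs-MCs (304.1 to 322.7 TPM) and 283 TPM in MPC-Dif (254.1 to 303.5 TPM), so the ranges nearly met. This sum was not recalculated under other scalings. The sum was 21.1 to 21.6 TPM in pgEpiSCs-MPCs, 17.2 to 23.2 TPM in pgEpiSCs-High and 22.8 to 32.2 TPM in pgEpiSCs-Low. FOSL2 took 44.3% to 47.9% of the sum in pgEpiSCs-MCs and 23.5% to 30.6% in MPC-Dif. JUNB took 18.7% to 24.9% in pgEpiSCs-MCs and 26.0% to 36.6% in MPC-Dif. JUN and JUND, the other JUN genes, are outside this sum. So is FOSB, with a mean of 2.78 TPM in pgEpiSCs-MCs and 13.0 TPM in MPC-Dif.

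**Figure D2:**
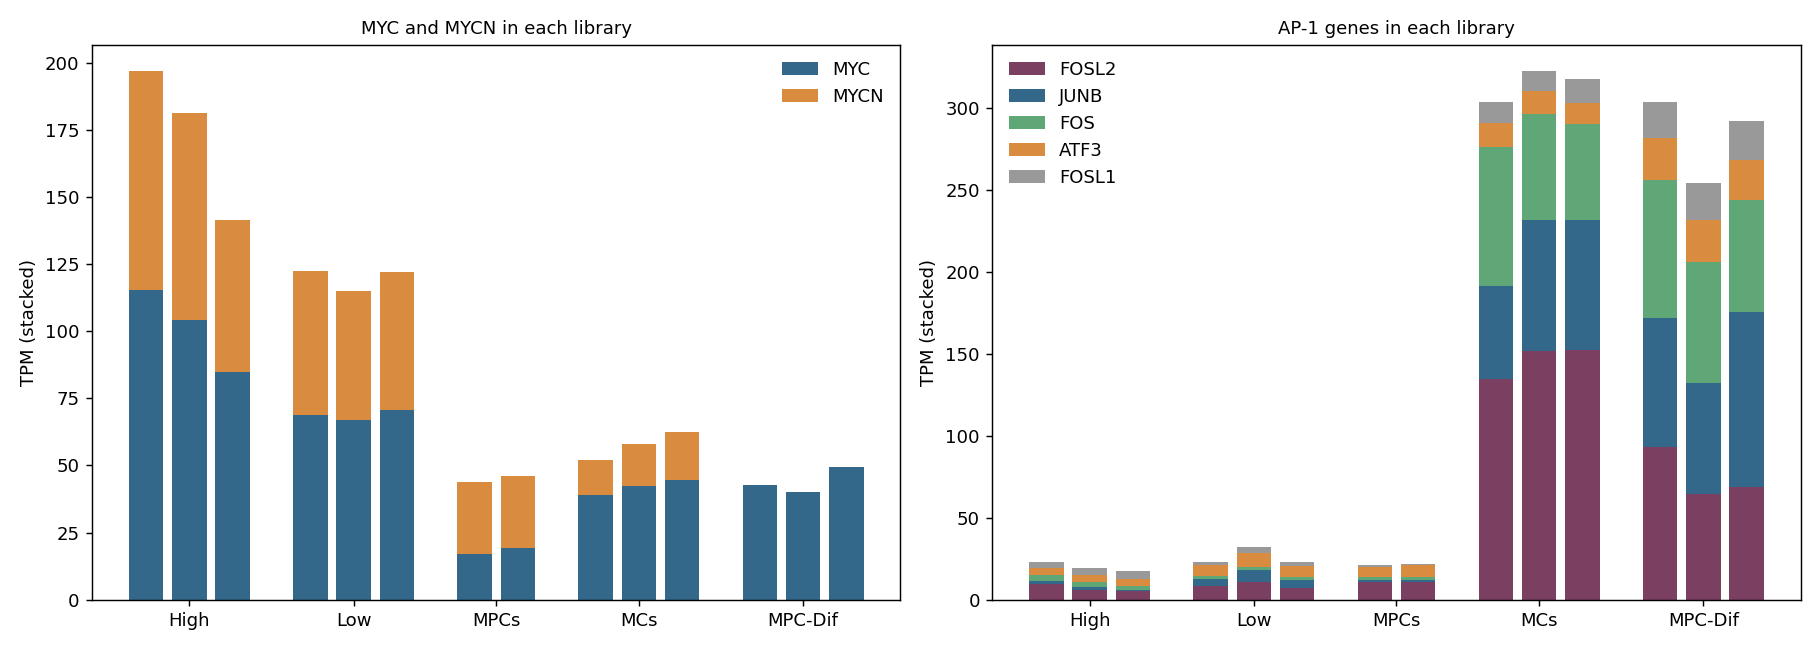
Stacked TPM in each library (1 bar a library, linear axis from 0) of MYC and MYCN on the left and of the 5 AP-1 genes on the right. MYCN makes up 40.0% to 43.7% of the MYC and MYCN sum in pgEpiSCs and at most 0.168% in MPC-Dif, and the AP-1 sum is at most 32.2 TPM outside pgEpiSCs-MCs and MPC-Dif.

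MYC (chromosome 4, 12455141 to 12460360, minus strand) fell to a minimum in day 8 progenitors. It had 115, 104 and 84.7 TPM in pgEpiSCs-High, 68.8, 66.8 and 70.5 TPM in pgEpiSCs-Low, 17.0 and 19.1 TPM in pgEpiSCs-MPCs, 38.8, 42.2 and 44.5 TPM in pgEpiSCs-MCs, and 42.7, 40.0 and 49.3 TPM in MPC-Dif. The log2 fold change of pgEpiSCs-MPCs against pgEpiSCs was -2.15 (SE 0.10, adjusted p = 2.81e-10), and MYC was 2.32-fold higher in pgEpiSCs-MCs than in pgEpiSCs-MPCs (log2 fold change 1.17, SE 0.12, adjusted p = 6.03e-07). pgEpiSCs-MCs and MPC-Dif overlapped in MYC. The difference between these groups was -0.07 on the log2 scale (SE 0.10, adjusted p = 0.565) and turned to 0.02 without MPC-Dif replicate 3.

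MYCN (chromosome 3, 121543201 to 121549678, minus strand) stepped down along the protocol without a return. It had 81.7, 77.2 and 56.6 TPM in pgEpiSCs-High, 53.5, 48.0 and 51.6 TPM in pgEpiSCs-Low, 27.0 and 27.0 TPM in pgEpiSCs-MPCs, and 13.1, 16.0 and 18.0 TPM in pgEpiSCs-MCs. In MPC-Dif it was listed at 0, 0.044 and 0.083 TPM. No groups overlapped. The log2 fold change was -1.13 in pgEpiSCs-MPCs against pgEpiSCs (SE 0.13, adjusted p = 3.13e-06), -0.76 in pgEpiSCs-MCs against pgEpiSCs-MPCs (SE 0.15, adjusted p = 0.00036) and 3.99 in pgEpiSCs-MCs against MPC-Dif (SE 0.13, adjusted p = 1.72e-12). The last value is held down by the added 1 TPM and was 6.83 with a pseudocount of 0.1.

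The share of MYCN in the sum of MYC and MYCN differed between groups. MYCN was 41.4 ± 1.26% of their sum in pgEpiSCs-High and 42.6 ± 1.00% in pgEpiSCs-Low (SD, n = 3 each). It was 60.0 ± 1.98% in pgEpiSCs-MPCs (SD, n = 2) and 27.2 ± 1.82% in pgEpiSCs-MCs (SD, n = 3). MYCN was thus the larger of the pair only in both libraries of pgEpiSCs-MPCs. The sum of the pair was 173 ± 28.7 TPM in pgEpiSCs-High and 120 ± 4.25 TPM in pgEpiSCs-Low, and lay between 40.0 and 62.5 TPM in every other library.

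The comparisons across all genes give the background for these changes. A single limma model of log2(TPM + 1) held all 14 libraries, and called means an adjusted p below 0.05 (Benjamini-Hochberg, over 14957 genes). In pgEpiSCs-High against pgEpiSCs-Low 4 of 8 genes were called higher (FOS, FOSL1, MYC and MYCN) and 2 lower (JUNB and ATF3), against 8.36% of all tested genes higher and 15.7% lower. Lower calls made 65.2% of all calls there, and 46.1% with median-of-ratios scaling and 48.2% with quantile normalization. MYC was 1.48-fold higher in the mean of high passage cells (log2 fold change 0.54, SE 0.10, adjusted p = 0.00202) and ATF3 was lower (-0.64, SE 0.09, adjusted p = 0.000268). MYCN was 1.41-fold higher (log2 fold change 0.47, SE 0.13, adjusted p = 0.0193). FOSL2 and EGR1 did not pass the test, at -0.30 (SE 0.19, adjusted p = 0.286) and -0.27 (SE 0.16, adjusted p = 0.256). The calls of FOS (0.43, SE 0.15, adjusted p = 0.0474) and FOSL1 (0.54, SE 0.17, adjusted p = 0.0393) each ended in 12 of 24 alternative settings. That of FOS ended without pgEpiSCs-High replicate 1 or 2, pgEpiSCs-Low replicate 1 or 3, pgEpiSCs-MCs replicate 2, either pgEpiSCs-MPCs library or any one MPC-Dif library (adjusted p = 0.0523 to 0.153). That of FOSL1 ended without pgEpiSCs-High replicate 2 or 3, pgEpiSCs-Low replicate 1 or 3, pgEpiSCs-MCs replicate 1 or any one MPC-Dif library (adjusted p = 0.0509 to 0.137). Without pgEpiSCs-High replicate 2 only 3 of 8 genes were called, as FOS, FOSL1 and MYCN lost their calls. MYCN also lost its call without pgEpiSCs-High replicate 1 (adjusted p = 0.075) and without pgEpiSCs-Low replicate 2 (adjusted p = 0.0645). With a pseudocount of 0.1 only 4 of 8 genes were called, as MYCN and FOSL1 lost their calls (adjusted p = 0.11 each).

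**Figure D3:**
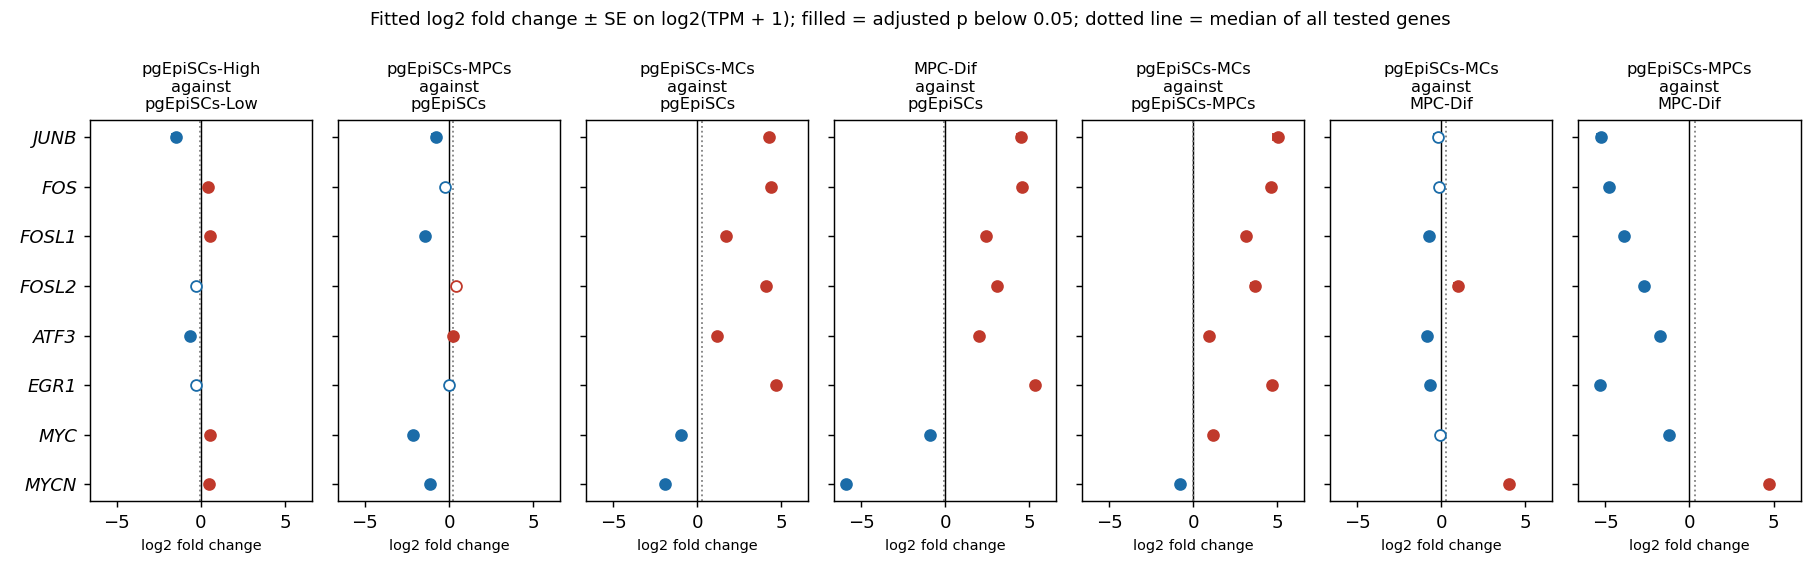
Fitted log2 fold change with its SE (bars mostly hidden by the points) of the 8 genes in the 7 comparisons, filled where the adjusted p was below 0.05, with the median of all tested genes as a dotted line. JUNB, FOS, FOSL1, FOSL2, ATF3 and EGR1 lie right of 0 in pgEpiSCs-MCs and in MPC-Dif against pgEpiSCs, and MYC and MYCN left of it.

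At day 8 ATF3 was the only one of the 8 genes called higher than in pgEpiSCs. In pgEpiSCs-MPCs against pgEpiSCs 1 of 8 genes was called higher (ATF3) and 4 lower (MYC, MYCN, FOSL1 and JUNB), against 47.5% of all tested genes higher and 21.4% lower. Lower calls were 31% of all calls, and 49.4% with median-of-ratios scaling and 53.6% with quantile normalization. The median of all tested genes was 0.24 on the log2 scale, and 0 with median-of-ratios scaling. ATF3 was 0.24 higher (SE 0.09, adjusted p = 0.0322), close to that median. Its libraries overlapped, and its sign turned under both scalings and against pgEpiSCs-Low alone. JUNB was 0.75 lower on the log2 scale (log2 fold change -0.75, SE 0.23, adjusted p = 0.0107), but its libraries overlapped those of pgEpiSCs. Against pgEpiSCs-High alone its log2 fold change was -0.003 (adjusted p = 1). The JUNB call also ended without pgEpiSCs-MPCs replicate 1 (adjusted p = 0.0652) or replicate 2 (adjusted p = 0.0607). FOS, FOSL2 and EGR1 did not pass the test, with log2 fold changes of -0.23 (adjusted p = 0.183), 0.43 (adjusted p = 0.0597) and -0.01 (adjusted p = 0.983). FOS was called lower with median-of-ratios scaling (-0.43, adjusted p = 0.0156) and with quantile normalization (-0.59, adjusted p = 0.00237), and EGR1 with quantile normalization (-0.44, adjusted p = 0.0247).

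By day 44 all 8 genes were called against pgEpiSCs. In pgEpiSCs-MCs 6 of 8 genes were higher and 2 lower, against 50.8% of all tested genes higher and 30.9% lower, so a share of 6 in 8 stands against a background in which most genes were called. Lower calls were 37.8% of all calls and 55.9% with quantile normalization. The median of all tested genes was 0.27, and -0.13 with quantile normalization. Log2 fold changes were 4.27 for JUNB (SE 0.20), 4.07 for FOSL2 (SE 0.16), 1.72 for FOSL1 (SE 0.15) and 1.16 for ATF3 (SE 0.08), the last being 0.59 with quantile normalization. MYC was -0.98 (SE 0.09) and MYCN -1.88 (SE 0.11). In MPC-Dif against pgEpiSCs the same 6 genes were higher and the same 2 lower, against 37.4% of all tested genes higher and 44.1% lower. There the log2 fold changes were 4.49 for JUNB (SE 0.20, and 5.24 against pgEpiSCs-High or 3.74 against pgEpiSCs-Low alone), 3.10 for FOSL2 (SE 0.16), 2.44 for FOSL1 (SE 0.15), 1.99 for ATF3 (SE 0.08) and -0.91 for MYC (SE 0.09). These comparisons share the pgEpiSCs libraries and are not independent.

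From day 8 to day 44 the AP-1 genes and EGR1 rose. In pgEpiSCs-MCs against pgEpiSCs-MPCs 7 of 8 genes were higher and 1 (MYCN) lower, against 34.5% of all tested genes higher and 36.1% lower. The means were 59.3-fold higher for JUNB, 38.7-fold for FOS, 32.3-fold for EGR1, 20.7-fold for FOSL1, 13.5-fold for FOSL2 and 2.02-fold for ATF3. The libraries of these groups (n = 3 and n = 2) did not overlap in any of the 8 genes. The share of all tested genes without overlap was not counted, so this has no background.

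The day 44 cells were close to MPC-Dif in some genes and not in others. In pgEpiSCs-MCs against MPC-Dif 2 of 8 genes were higher (FOSL2 and MYCN) and 3 lower (ATF3, FOSL1 and EGR1), against 50.0% of all tested genes higher and 29.1% lower. Lower calls were 36.8% of all calls, and 49.5% with median-of-ratios scaling and 54.2% with quantile normalization. The log2 fold changes were -0.83 for ATF3 (SE 0.09, adjusted p = 1.53e-06), -0.72 for FOSL1 (SE 0.17, adjusted p = 0.00179) and -0.65 for EGR1 (SE 0.16, adjusted p = 0.00202), and with median-of-ratios scaling that of EGR1 was -1.01. FOSL1 was -1.14 with quantile normalization. JUNB, FOS and MYC did not pass the test, at -0.22 (SE 0.23, adjusted p = 0.395), -0.13 (SE 0.15, adjusted p = 0.432) and -0.07. With median-of-ratios scaling all 8 genes were called, JUNB, FOS and MYC as lower, and MYC was also called lower with quantile normalization (-0.25, adjusted p = 0.0315). In pgEpiSCs-MPCs against MPC-Dif 1 of 8 genes was higher (MYCN) and 7 lower, against 50.7% of all tested genes higher and 28.1% lower. Lower calls were 35.7% of all calls there, and 49.1% and 46.9% under the same scalings. EGR1 was lowest against MPC-Dif, at -5.32 (SE 0.18, adjusted p = 2.16e-12), and JUNB was -5.25 (SE 0.26, adjusted p = 1.46e-10).

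Genes that partner, feed or follow these factors were counted from lists written for this purpose, with no test of a list. The lists were written with earlier results of these data known. Their counts and medians here and below are therefore descriptions and not independent support. Among 9 tested AP-1 partner genes 8 were higher and 1 lower in pgEpiSCs-MCs against pgEpiSCs (median log2 fold change 1.20, against 0.27 for all tested genes, of which 50.8% were higher and 30.9% lower). At day 8, in pgEpiSCs-MPCs against pgEpiSCs, 4 of them were higher (ATF2, ATF4, ATF7 and MAFK) and 2 lower (BATF3 and MAFF), with a median of 0.22 against 0.24 for all tested genes, of which 47.5% were higher and 21.4% lower. ATF2, a JUN partner activated by stress kinases, was 0.82 higher there (adjusted p = 3.44e-06). MAFF, a small MAF protein, had 54.5 ± 3.73 TPM in pgEpiSCs-MCs and 4.35 ± 0.485 TPM in pgEpiSCs (log2 fold change 3.38, SE 0.08, adjusted p = 3.01e-14). BATF3, a FOS-like factor known from dendritic cells, was the lower one at -2.46 (SE 0.17, adjusted p = 4.12e-09). FOSB, the remaining FOS gene, was higher in MPC-Dif than in pgEpiSCs-MCs, since its log2 fold change in pgEpiSCs-MCs against MPC-Dif was -1.90 (SE 0.21, adjusted p = 9.99e-07).

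Of 26 other immediate early genes 22 were higher and 3 lower in pgEpiSCs-MCs against pgEpiSCs (median 2.62). All tested genes had a median of 0.27 there, with 50.8% higher and 30.9% lower. In MPC-Dif against pgEpiSCs 20 of the 26 were higher and 2 lower (median 1.89). All tested genes had a median of -0.10 there, with 37.4% higher and 44.1% lower. At day 8, in pgEpiSCs-MPCs against pgEpiSCs, 15 of the 26 were called higher and 7 lower (median 0.58). The median of all tested genes was 0.24, with 47.5% higher and 21.4% lower. CCN2, a secreted matrix protein, had 101 ± 16.8 TPM in pgEpiSCs-MPCs and 6.64 ± 0.938 TPM in pgEpiSCs, with a log2 fold change of 3.74 (SE 0.11, adjusted p = 9.25e-13). IER3 and GADD45B, stress-response genes, were 5.89 (SE 0.15) and 5.92 (SE 0.09) higher on the log2 scale in pgEpiSCs-MCs than in pgEpiSCs. KLF4, a zinc finger factor, had 7.73 ± 0.374 TPM in pgEpiSCs-MCs and 137 ± 4.33 TPM in MPC-Dif (log2 fold change -3.98, SE 0.22, adjusted p = 4.16e-10). SGK1, a serum-induced kinase, was lower in pgEpiSCs-MCs than in MPC-Dif by a similar size (-3.91, SE 0.15, adjusted p = 1.19e-11).

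Of 15 tested upstream factors and kinases of this route 6 were higher and 3 lower in pgEpiSCs-MCs against pgEpiSCs (median 0.05). All tested genes had a median of 0.27 there, with 50.8% higher and 30.9% lower, so both shares of the list lay below the background. ELK3, a TCF factor that binds beside SRF, was 2.71 higher (SE 0.10, adjusted p = 4.36e-12), and MAPK3, the kinase ERK1, 1.83 higher (SE 0.07, adjusted p = 5.38e-12). SRF itself was lower (-1.26, SE 0.07, adjusted p = 6.09e-10), with 29.8 ± 3.18 TPM in pgEpiSCs-MCs and 72.7 ± 6.51 TPM in pgEpiSCs.

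**Figure D4:**
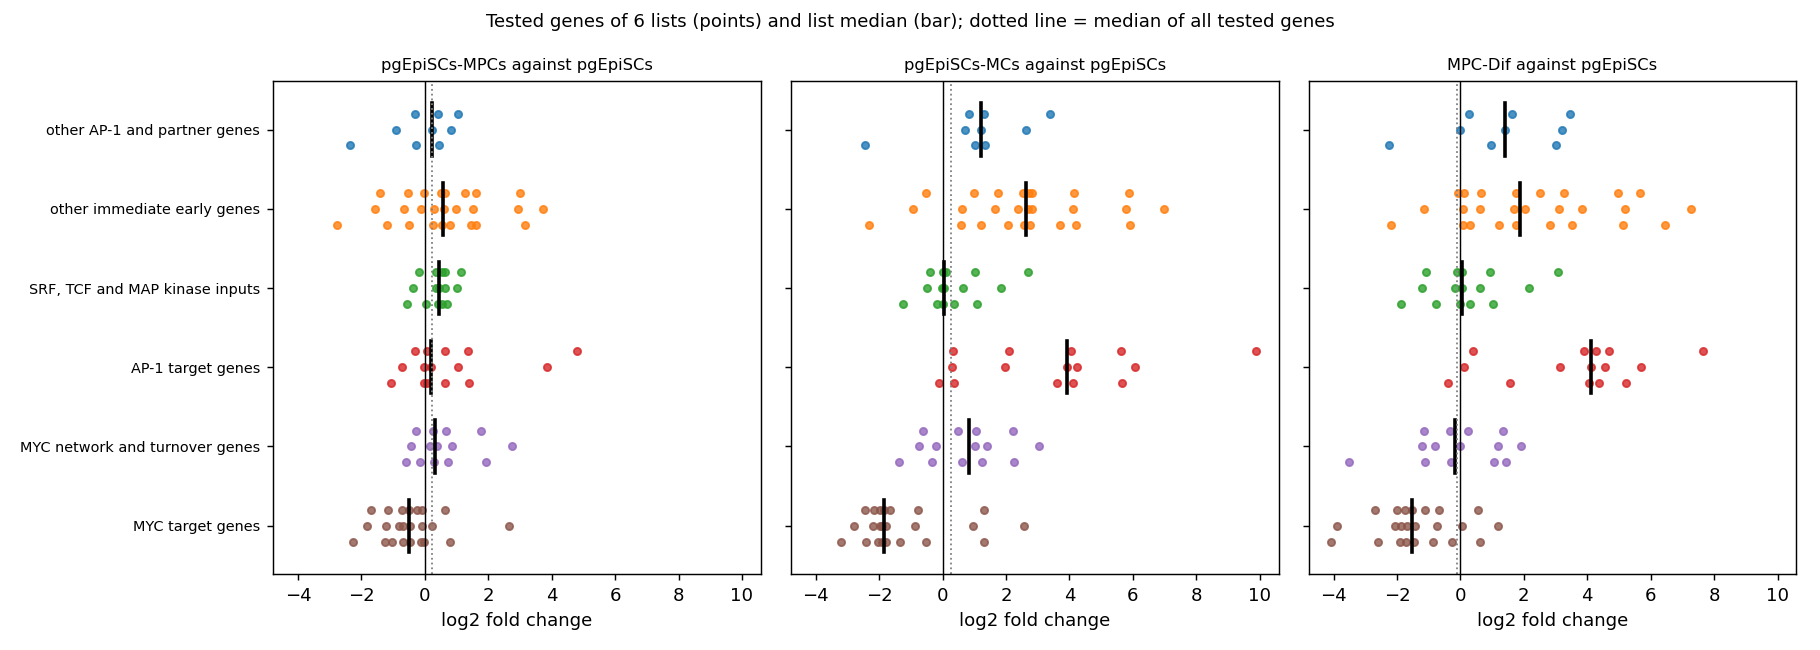
Log2 fold change on log2(TPM + 1) of the tested genes of 6 lists (points, spread vertically only to be seen) against pgEpiSCs, with the list median (bar) and the median of all tested genes (dotted line). In pgEpiSCs-MCs the AP-1 targets have a median of 3.92 and the MYC targets one of -1.85.

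Among 15 tested genes known as AP-1 targets 13 were higher and 0 lower in pgEpiSCs-MCs against pgEpiSCs (median 3.92, against 0.27 for all tested genes, of which 50.8% were higher and 30.9% lower). In MPC-Dif against pgEpiSCs 13 were higher and 1 lower (median 4.13, against -0.10 for all tested genes, of which 37.4% were higher and 44.1% lower). PLAU, the protease urokinase, had 65.2 ± 1.65 TPM in pgEpiSCs-MCs and 0.332 ± 0.137 TPM in pgEpiSCs (log2 fold change 5.64, SE 0.10, adjusted p = 2.59e-15). SPP1, the secreted protein osteopontin, had 2060 ± 75.1 TPM in pgEpiSCs-MCs and 34.7 ± 1.67 TPM in MPC-Dif. HMOX1, which degrades haem, went the other way, with 7.71 ± 0.545 TPM in pgEpiSCs-MCs and 184 ± 12.0 TPM in MPC-Dif. In pgEpiSCs-MPCs against pgEpiSCs 8 targets were higher and 2 lower, near the shares of all tested genes (47.5% and 21.4%), with a median of 0.18 against 0.24. Several of these targets are also made by fibroblasts. The 6 fibroblast markers (COL1A1, COL3A1, PDGFRA, DCN, LUM and POSTN) summed to 6870 to 7220 TPM in pgEpiSCs-MCs and 16000 to 16800 TPM in MPC-Dif, against 101 to 103 TPM in pgEpiSCs-MPCs, 28.3 to 38.2 TPM in pgEpiSCs-High and 13.9 to 24.8 TPM in pgEpiSCs-Low. All 6 had a mean above 0.5 TPM in MPC-Dif and pgEpiSCs-MCs, and none was listed at 0 throughout a group. DCN, a defining fibroblast gene, had 13.8 to 15.9 TPM in pgEpiSCs-MCs and 2910 to 2960 TPM in MPC-Dif. Smooth muscle and mural markers (4 genes) summed to 4580 to 4730 TPM in pgEpiSCs-MCs and 4020 to 5110 TPM in MPC-Dif, against 1880 to 1970 TPM in pgEpiSCs-MPCs and at most 52.6 TPM in pgEpiSCs. ACTA2 (1990 to 2170 TPM) and TAGLN (2530 to 2670 TPM) made nearly all of that sum in pgEpiSCs-MCs. MYH11 had 7.68 to 9.19 TPM in pgEpiSCs-MCs and 0.463 to 0.787 TPM in MPC-Dif. RGS5 had 0.041 to 0.313 TPM in pgEpiSCs-MCs and 20.0 to 31.1 TPM in MPC-Dif. The part of cells with these markers in the AP-1 and EGR1 levels was not tested.

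MYC target genes were mostly lower in the differentiated groups. Of 23 tested genes 19 were lower and 4 higher in pgEpiSCs-MCs against pgEpiSCs (median -1.85, against 0.27 for all tested genes, of which 30.9% were lower). In MPC-Dif against pgEpiSCs 19 were lower and 3 higher (median -1.53, against -0.10 for all tested genes, of which 44.1% were lower), and in pgEpiSCs-MPCs against pgEpiSCs 15 were lower and 4 higher (median -0.51, against 0.24 for all tested genes, of which 21.4% were lower). Those that fell include genes of ribosome assembly and nucleotide synthesis. NOP56, a nucleolar protein of ribosomal RNA processing, had 94.1 ± 8.63 TPM in pgEpiSCs-MCs and 653 ± 24.2 TPM in pgEpiSCs (log2 fold change -2.79, SE 0.05, adjusted p = 4.26e-15), and PPAT, the first enzyme of purine synthesis, was -3.20 (SE 0.07, adjusted p = 3.85e-14). ODC1, the polyamine enzyme, had 30.6 ± 0.687 TPM in MPC-Dif and 474 ± 48.8 TPM in pgEpiSCs. The glycolytic targets ENO1 and LDHA were lower in pgEpiSCs-MPCs than in pgEpiSCs (-1.83, SE 0.09, and -2.28, SE 0.13) and higher in pgEpiSCs-MCs than in pgEpiSCs-MPCs (3.13, SE 0.10, and 3.59, SE 0.14). CCND2, a D-type cyclin, was higher in pgEpiSCs-High than in pgEpiSCs-Low (1.60, SE 0.12, adjusted p = 4.59e-07). Pluripotency markers (6 genes) summed to 2060 to 2300 TPM in pgEpiSCs-High, 1880 to 1960 TPM in pgEpiSCs-Low and 375 to 411 TPM in pgEpiSCs-MPCs. Their sum was 179 to 221 TPM in pgEpiSCs-MCs and at most 0.052 TPM in MPC-Dif. The sum had the order of groups of MYCN but not that of MYC. LIN28A made most of it in pgEpiSCs, at 1260 to 1510 TPM in pgEpiSCs-High and 1200 to 1240 TPM in pgEpiSCs-Low. SOX2 and OTX2 made nearly all of it in pgEpiSCs-MCs and did not keep that order. OTX2 had 205 to 225 TPM in pgEpiSCs-High, 303 to 321 TPM in pgEpiSCs-Low and 212 to 215 TPM in pgEpiSCs-MPCs. SOX2, one of the 6 and also a neural gene, was at 61.2 to 92.0 TPM in pgEpiSCs, 85.4 to 93.4 TPM in pgEpiSCs-MPCs and 96.9 to 130 TPM in pgEpiSCs-MCs. Neural markers (5 of 6 listed genes have a row) summed to 227 to 291 TPM in pgEpiSCs-High and 283 to 291 TPM in pgEpiSCs-Low. Their sum was 1320 to 1370 TPM in pgEpiSCs-MPCs, 1710 to 1850 TPM in pgEpiSCs-MCs and 102 to 107 TPM in MPC-Dif. It stood higher in pgEpiSCs-MPCs and pgEpiSCs-MCs than in MPC-Dif, as did MYCN, but MYCN was highest in pgEpiSCs. ZIC1 made most of the sum in pgEpiSCs-MPCs (1050 to 1090 TPM). TUBB3 was lower in pgEpiSCs-MPCs (123 to 130 TPM) than in pgEpiSCs-High (210 to 274 TPM) and pgEpiSCs-Low (263 to 273 TPM). ZIC1 was listed at 0 in all pgEpiSCs-High libraries and PAX6 in all pgEpiSCs-Low libraries. The mitochondrial share of TPM was 19.8% to 24.9% in pgEpiSCs, 15.8% to 17.1% in pgEpiSCs-MPCs, 6.07% to 6.61% in pgEpiSCs-MCs and 6.74% to 7.10% in MPC-Dif. With mitochondrial genes left out, MYC and MYCN kept their direction and call in pgEpiSCs-MPCs, pgEpiSCs-MCs and MPC-Dif against pgEpiSCs. Beyond this refit, the part of these markers and of the mitochondrial share in the MYC, MYCN and MYCL levels was not tested.

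The MYC network of 14 tested partner and turnover genes had 9 higher and 5 lower in pgEpiSCs-MCs against pgEpiSCs (median 0.82, against 0.27 for all tested genes), near the shares of all tested genes (50.8% higher and 30.9% lower). MXD1, MXI1 and MXD3, which compete with MYC for MAX, were 3.04 (SE 0.12), 2.21 (SE 0.08) and 2.25 (SE 0.09) higher on the log2 scale. MXD3 was also higher in pgEpiSCs-MPCs, with 157 ± 11.5 TPM against 23.0 ± 3.99 TPM in pgEpiSCs (2.74, SE 0.11, adjusted p = 2.22e-11). MYCL, the third MYC gene, peaked there too, with 50.0 ± 0.342 TPM in pgEpiSCs-MPCs, 26.4 ± 2.30 TPM in pgEpiSCs-MCs and 12.4 ± 1.64 TPM in pgEpiSCs, and like MYCN it was near 0 in MPC-Dif (0.169 ± 0.208 TPM).

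The genes whose pattern was most like each of the 8 genes were found by Pearson's r of log2(TPM + 1) over the 14 libraries, which share their groups, so r mostly repeats the group means. FOS was most like COL1A1 (r = 0.997) and COL1A2 (0.996), the chains of type I collagen, and SIGLEC1 (0.996). EGR1 was most like PTGS2 (0.997), the prostaglandin enzyme COX2, MYMK (0.996), a protein of myoblast fusion, and MYL4 (0.995). For FOSL2 the closest was LOXL2 (0.992), a collagen cross-linking enzyme, for JUNB TSPO (0.990), for ATF3 ATP6V0D1 (0.990) and for FOSL1 PYGL (0.982). MYC was most like PPFIBP2 (0.979), ENPP5 (0.972) and PCK2 (0.969), and MYCN like PTGES3, FAM169A and RALGAPA2 (0.995 each). Once group means were taken away, FOS still varied with EGR1 (r = 0.737) and ATF3 (0.756), and EGR1 with ATF3 (0.818). MYC varied with MYCN (0.819) and JUNB (0.820), while JUNB and FOS did not vary together (0.117). Apart from JUNB and FOS, these pairs have the highest such values among the 8 genes. The other pairs were lower, down to -0.418 for EGR1 and MYCN. All cover 14 libraries in 5 groups and are given as a description, without a background over all gene pairs.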

How the data were processed

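RNA with a poly-A tail was sequenced from 14 libraries of 5 groups. The authors mapped reads to Sscrofa11.1 with HISAT2, counted them with featureCounts and deposited a table of TPM calculated in R. TPM keeps no read counts, so depth is unknown, no counting interval can be given and no count test was run. Whether reads were counted by strand is not given in the sources used here.

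All genes were fitted with limma 3.58.1 in R 4.3.3 on log2(TPM + 1), with a mean per group and an intensity trend. The added 1 understates changes of low genes. A gene was tested if any 1 group had 50% or more of its libraries above 0.5 TPM (14957 of 15031), with Benjamini-Hochberg adjustment within a comparison. pgEpiSCs without a suffix weights both passages equally, and its SD is over 6 libraries. The model was tested on simulated data. Sets of genes were not tested. A symbol could be given to 608 of 2209 Ensembl identifiers. Promoter sequence and gene positions are from RefSeq on Sscrofa11.1, the authors' build, and gene starts are as annotated.

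Of each list and comparison, the examples come from the 3 called genes with the largest absolute log2 fold change whose libraries do not overlap. ATF2 at day 8 is outside this rule. For each of the 8 genes, the genes most like it are the 3 with a symbol and the highest r. The genes and lists were chosen with earlier results of these data known. Alternatives were pseudocounts of 0.1 and 0.5, no filter or one at 2 TPM, scaling by median of ratios or by quantiles, removal of mitochondrial genes, models of the compared groups alone, with a replicate block or without the trend, each passage by itself as the baseline, and removal of each library.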

Additional observations from a re-analysis of the deposited data

How the results depend on the processing

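Of 1392 recalculated log2 fold changes of the 8 genes, 1332 kept their direction and their side of the threshold, 37 lost their call, 14 gained one and 9 changed sign. The number of the 8 genes called remained 8 under every alternative in pgEpiSCs-MCs and MPC-Dif against pgEpiSCs and in pgEpiSCs-MPCs against MPC-Dif and pgEpiSCs-MCs against pgEpiSCs-MPCs. In pgEpiSCs-MCs against MPC-Dif it was 5, and 8 with median-of-ratios scaling and 6 with quantile normalization. With a library left out it ranged from 3 to 6 in pgEpiSCs-High against pgEpiSCs-Low and from 3 to 6 in pgEpiSCs-MPCs against pgEpiSCs. Changes of sign, whose cause was not tested, were all small values. In pgEpiSCs-MPCs against pgEpiSCs ATF3 (0.24) became -0.025 with median-of-ratios scaling, -0.20 with quantile normalization and -0.077 against pgEpiSCs-Low alone, FOSL2 (0.43) became -0.065 with quantile normalization, and EGR1 (-0.0069) became 0.13 against pgEpiSCs-High alone and ranged from -0.29 to 0.28 with a library left out. The ATF3 call also ended without pgEpiSCs-High replicate 2, pgEpiSCs-Low replicate 1 or pgEpiSCs-MPCs replicate 2, and FOSL2 gained a call (adjusted p = 0.00663 to 0.0478) without MPC-Dif replicate 1, pgEpiSCs-High replicate 1 or pgEpiSCs-Low replicate 2. MYC in pgEpiSCs-MCs against MPC-Dif ranged from -0.13 to 0.015 with a library left out. FOSL2 was called in pgEpiSCs-High against pgEpiSCs-Low without pgEpiSCs-High replicate 1 (-0.53, adjusted p = 0.0362). Replicate numbers did not pair the libraries (correlations of same-numbered pairs from -0.151 to 0.126, 1 of 26 over 0.1). With a replicate block 5 instead of 6 of the 8 genes were called in pgEpiSCs-High against pgEpiSCs-Low and 5 in pgEpiSCs-MPCs against pgEpiSCs, where FOS gained a call (adjusted p = 0.0385) and ATF3 lost it (adjusted p = 0.0715). A group of 2 or 3 libraries and unknown depth limit the precision of genes below about 1 TPM.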
